A study of Rattus norvegicus with 48 samples.

Results

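The comparison described here set 10 livers of male Wistar rats that underwent 30 min of total ischemia and 30 min of reperfusion (the group labelled IRI) against 8 sham livers from rats that had a laparotomy and no ischemia. These 18 arrays were chosen by their group labels from 48. All rats received the same fentanyl, fluanisone and midazolam anaesthesia, had the hepatoduodenal ligament freed, and gave a biopsy of the right lobe, 1 animal per array. The labels give no age, no time of the sham biopsy and no hybridization batch. The other 30 livers had the same ischemia with conditioning, either 10 min of ischemia and 10 min of reperfusion beforehand (IPC), 3 cycles of 30 s at the start of reperfusion (IPO), or both (IPC+IPO). They entered the statistical fit to estimate the SD within groups and, where array spread was a covariate, the common slope on it. Messenger RNA was read on Affymetrix arrays as log2 values, on which a difference of 1 is a doubling, for 14506 genes with 1 probe set each.

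A liver deprived of blood runs out of ATP, switches to anaerobic metabolism and accumulates hypoxanthine and reduced electron carriers. When oxygen returns, mitochondria and phagocytes release reactive oxygen species, and stress-activated MAP kinases switch on immediate-early genes such as those of the AP-1 and Egr families without new protein synthesis. Feedback genes of the Gadd45, Dusp and Socs families, metallothioneins and ferritin follow, whereas cytokine-driven inflammation and neutrophil entry develop over the later hours. The biopsies were taken within that early window.

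The arrays differed in spread, which is the SD of the log2 values over all genes of an array, and this moved with the expression of many genes. Spread averaged 1.77 ± 0.111 in the IRI livers and 1.72 ± 0.134 in the sham livers (SD, n = 10 and n = 8), a difference of 0.045 with an exact two-sided permutation p of 0.441 over 43758 regroupings. Sham animals 43 and 48 had spreads of 1.96 and 1.91, whereas the other 6 sham arrays lay between 1.61 and 1.70. IRI animal 7 had the lowest spread, 1.54, and a mean correlation with the other arrays of 0.888, against 0.955 to 0.980 in the other 9 IRI livers. The first principal component of the 18 arrays held 42.2% of their variance and correlated with spread at r = 0.955, a description, since both were computed from the same log2 values. What set the spread was not tested.

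**Figure D1:**
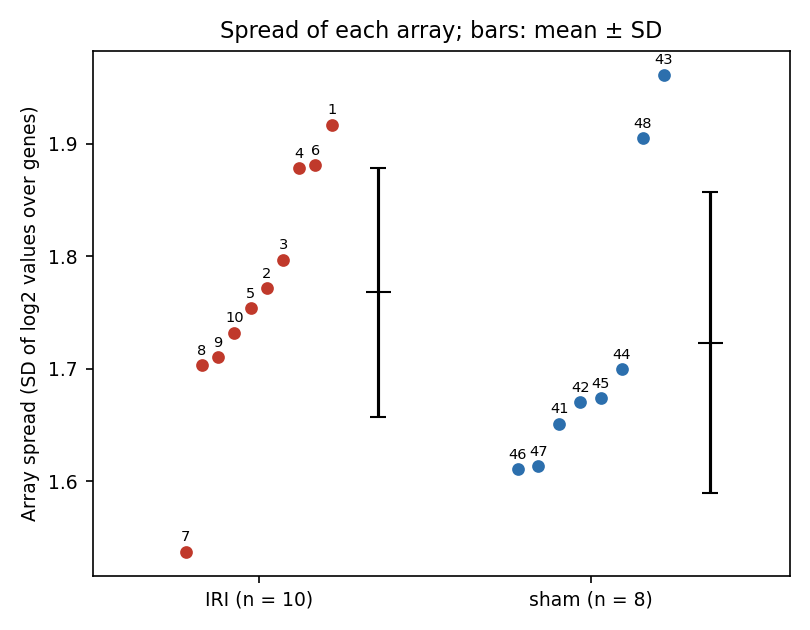
Spread of each array (SD of log2 values over 14506 genes, y axis) in IRI livers (left, red) and sham livers (right, blue), with animal numbers beside the points and the mean ± SD as bars. IRI values reach from 1.54 to 1.92, and in the sham group animals 43 and 48 stand above the other 6.

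Single genes of the early stress response (Junb), sterol synthesis (Fdps, Tm7sf2), antioxidant defence (Gpx1) and the ribosome (Rpl13) rose in IRI livers, and a smaller group that included Lsm12 and Fkbp5 fell. At an adjusted p under 0.05, 35 of 14506 genes (0.241%) differed, 25 of them higher in IRI livers (0.172%) and 10 lower (0.0689%). Rises lay between 0.45 and 1.36 on the log2 scale and falls between -0.35 and -0.77. An unadjusted p under 0.05 was reached by 1662 genes. When only the 18 IRI and sham arrays were fitted, limma called 0 genes, with 1122 at an unadjusted p under 0.05 and the direction of all 35 kept. In none of the 14506 genes did all 10 IRI values lie beyond all 8 sham values.

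For most of the 35 called genes, both sham arrays of high spread lay closer to the IRI mean than to the other 6 sham livers. Over the 35 genes, sham animal 43 was nearer to the IRI mean than to the mean of the other 6 sham livers for 25 genes, and sham animal 48 for 31. Against those 6 sham livers alone, all 10 IRI values lay outside the sham range for 21 of the 35 genes, 20 of them higher. The choice of the 35 by the same contrast fixes part of this, and the share over all genes was not computed. Genes outside the 35 also had all 10 IRI values above those 6 sham livers, among them Atf3, Dusp1, Bax and Rhob, so the trait was not particular to the 35. Leaving out sham animals 43 and 48 gave 1062 genes, 929 higher and 133 lower, all 35 among them. Leaving out IRI animals 7, 9 and 10, the IRI arrays of lowest correlation with the rest, gave 0 genes by limma, with 1772 at an unadjusted p under 0.05, although all 35 kept their direction. At or below the median spread of the 18 arrays, the IRI animals were 7, 8 and 9. Above it, the sham animals were 43 and 48. Among the 7 IRI and 2 sham arrays whose spread exceeded the median, limma called 0 genes (1157 at an unadjusted p under 0.05). The 25 risers had a median difference of 0.05 there, against 0.68 over all arrays, and the 10 fallers -0.29 against -0.48. Differences there were 0.58 for Junb and 0.12 for Gpx1, 0.05 for Fdps, 0.07 for Ninj1, 0.04 for Rack1, 0.08 for Rpsa and 0.0061 for Atp5mc2. Every count below rests on this mixture of arrays.

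The count also moved with single arrays. It fell to 1 without sham animal 47, 2 without sham 45, 4 without sham 44, 4 without IRI 9, 7 without IRI 6, 8 without sham 42 and 9 without sham 46. It was 10 without IRI 3, 11 without IRI 10, 12 without sham 41, 13 without IRI 4 and 15 without IRI 5. It was 54 without IRI 7, 56 without IRI 1, 219 without sham 43 and 324 without sham 48. Lsm12 alone of the 35 stayed called whichever array was left out, and none of the 35 changed direction.

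**Figure D2:**
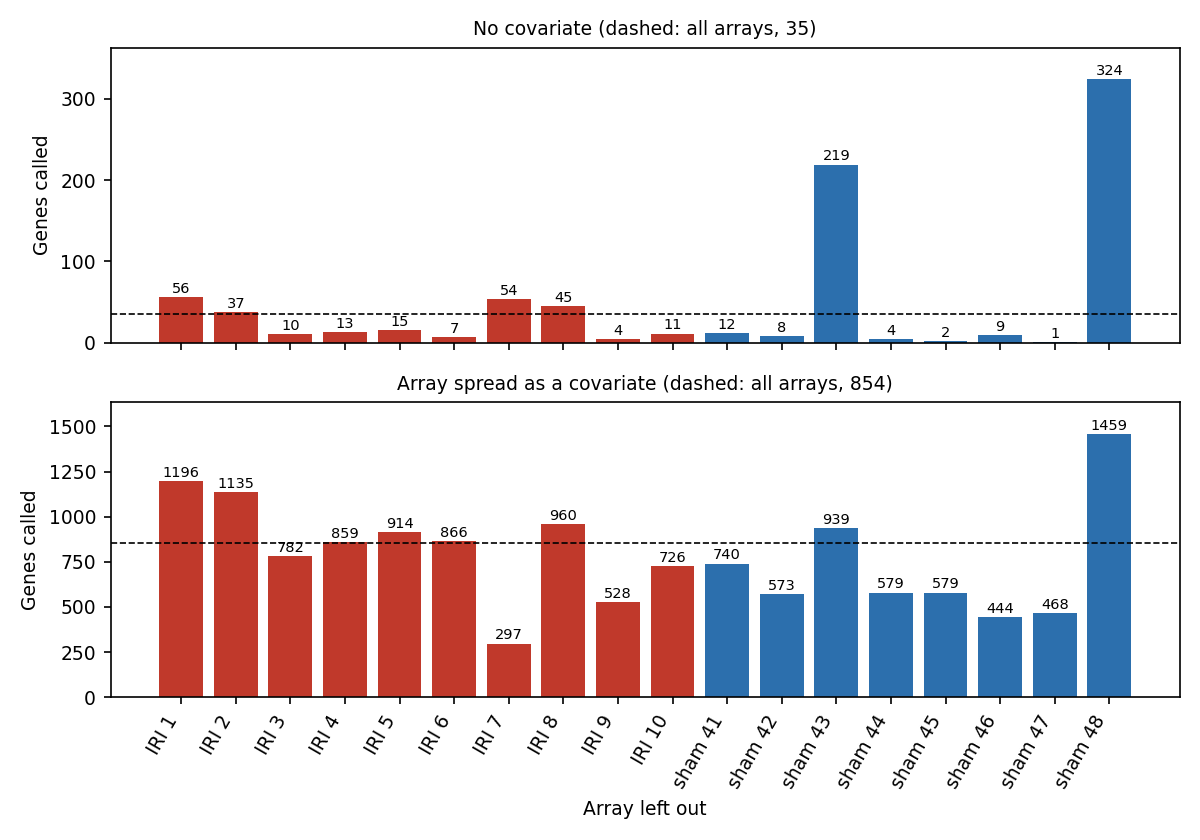
Number of genes called (y axis) when the array named on the x axis was left out, IRI arrays in red and sham arrays in blue, for the fit without a covariate (top) and with array spread as a covariate (bottom). Without sham 48 the counts were 324 and 1459, the highest in both panels.

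With each array's spread as a covariate in the same fit, 854 genes (5.89%) differed, 430 higher in IRI livers (2.96%) and 424 lower (2.92%), the 35 among them. The median SD left within groups was 0.212 with the covariate and 0.267 without it. Differences of the called genes were modest, with a median of 0.38 among the risers and -0.42 among the fallers. This count was 297 without IRI 7, 528 without IRI 9, 444 without sham 46, 468 without sham 47 and 1459 without sham 48, and 48 without IRI 7, 9 and 10 together. It was 1848 without sham 43 and 48, 49 when only the IRI and sham arrays were fitted, and 1 when each group had its own slope on spread. With such slopes the difference depends on the spread at which it is read, here the mean of all 48 arrays.

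**Figure D3:**
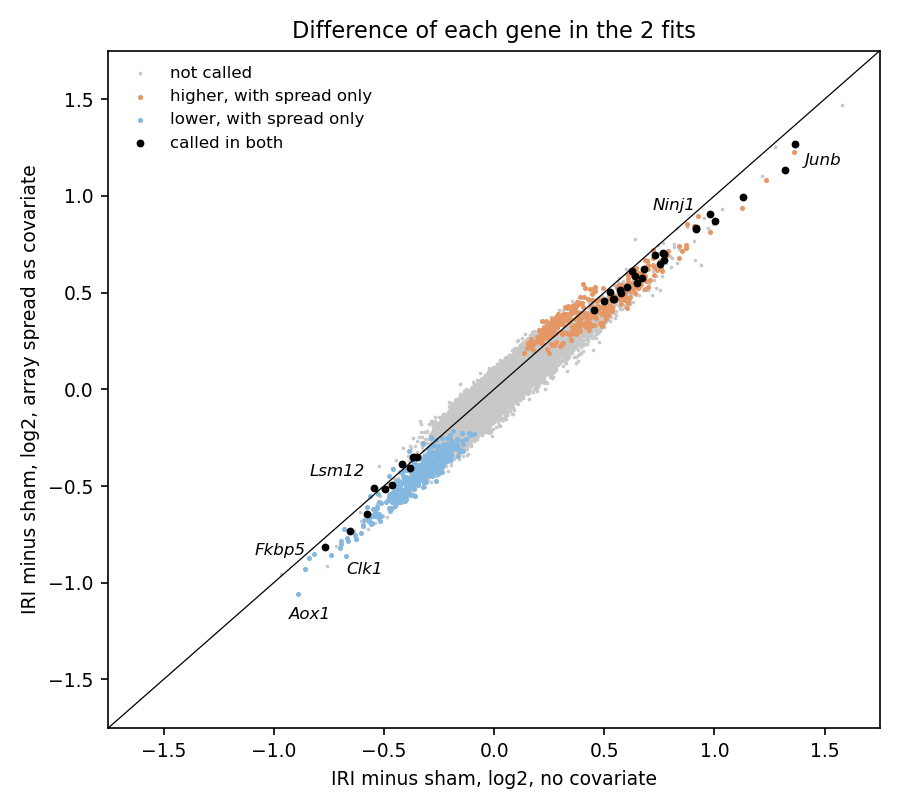
Difference of each gene between IRI and sham livers (log2) without a covariate (x axis) and with array spread as a covariate (y axis). Black points are the 35 genes called in both, orange and light blue points those called higher or lower with spread only, grey points the rest, and the line marks equal values.

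The fallers leaned on a few IRI livers. With the slope on spread removed, the 424 genes lay a median of 0.87 below the sham mean in IRI animal 7 and 0.56 below it in IRI animal 9, and between 0.20 and 0.40 below it in the other 8. IRI animal 7 was the lowest IRI liver for 253 of the 424. The 430 risers lay a median of 0.66, 0.69 and 0.54 above the sham mean in IRI animals 7, 9 and 10, and 0.19 to 0.38 above it in the other 7. As deposited, the 424 fallers lay a median of 0.24 above the sham mean in IRI animal 1 and 1.27 below it in IRI animal 7. The choice of these genes by the same contrast fixes part of this direction.

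Junb, which encodes an AP-1 transcription factor, had the largest rise among the 35. Its log2 values were 7.97, 8.27 and 9.97 (lowest, median and highest) in IRI livers and 6.31, 6.94 and 8.04 in sham livers, a 2.57-fold difference (1.36 ± 0.32 log2, SE, adjusted p = 0.0462). The groups overlapped only through sham animals 43 and 48, at 7.99 and 8.04, and IRI animal 5 stood highest. With the slope on spread removed, the lowest IRI value was 7.98 and the highest sham value 7.88.

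Junb was the 1 member called of 24 immediate-early transcription factors. That share, 4.17% in both fits, stands against 0.241% of all genes without the covariate and 5.89% with it. The list had a median difference of 0.42, against 0.03 over all genes, with 21 of the 24 members above 0 (87.5%, against 58.4% of all genes). In the 7 IRI and 2 sham arrays whose spread exceeded the median, the list median was 0.28, and in the 3 IRI and 6 sham arrays at or below it the median was 0.34. Without IRI animals 7, 9 and 10 the list median was 0.34, with 19 of 24 members above 0. Atf3, a stress-induced factor of the ATF family, averaged 7.85 ± 1.24 in IRI livers and 6.27 ± 0.76 in sham livers, with an adjusted p of 0.228. Egr1 (7.90 ± 0.65 against 7.03 ± 0.62) and Jun (8.53 ± 0.69 against 7.50 ± 0.81) likewise did not pass, with adjusted p of 0.333 and 0.235. The values of Atf3 within the IRI group ran from 6.64 in animal 4 to 10.96 in animal 5, a range wider than the difference between the groups.

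Of the 52 genes on 3 feedback lists, 3 were called with the covariate (5.77%, near the 5.89% over all genes), and 0 without it. Gadd45a, a growth arrest and MAP kinase regulator, had values of 7.68, 8.84 and 9.98 in IRI livers and 6.48, 7.19 and 8.80 in sham livers. Its difference was 1.23 ± 0.36 log2 with spread in the fit (adjusted p = 0.0343) and 1.36 ± 0.39 without it (adjusted p = 0.0952). Its relative Gadd45g had values of 8.02, 9.20 and 9.70 in IRI livers and 7.16, 7.51 and 9.18 in sham livers, a difference of 1.08 ± 0.26 with spread (adjusted p = 0.0111). Both genes overlapped between the groups through sham animals 43 and 48, and Gadd45g kept its call with spread whichever array was left out. They were the 2 called with spread of 20 Gadd45 family members and p53 targets (10%).

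Socs3, which blocks JAK and STAT signalling, was the 1 called of 16 genes of that feedback group (6.25%, against 5.89% of all genes). Its difference was 0.67 ± 0.20 with spread (adjusted p = 0.0404). It averaged 6.46 ± 0.34 in IRI livers and 5.78 ± 0.24 in sham livers. None of 16 MAP kinase phosphatases and feedback regulators passed in either fit. Among them Dusp1, which dephosphorylates MAP kinases, averaged 9.63 ± 0.44 in IRI livers and 8.66 ± 0.79 in sham livers (adjusted p = 0.186 without the covariate and 0.0761 with it).

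**Figure D4:**
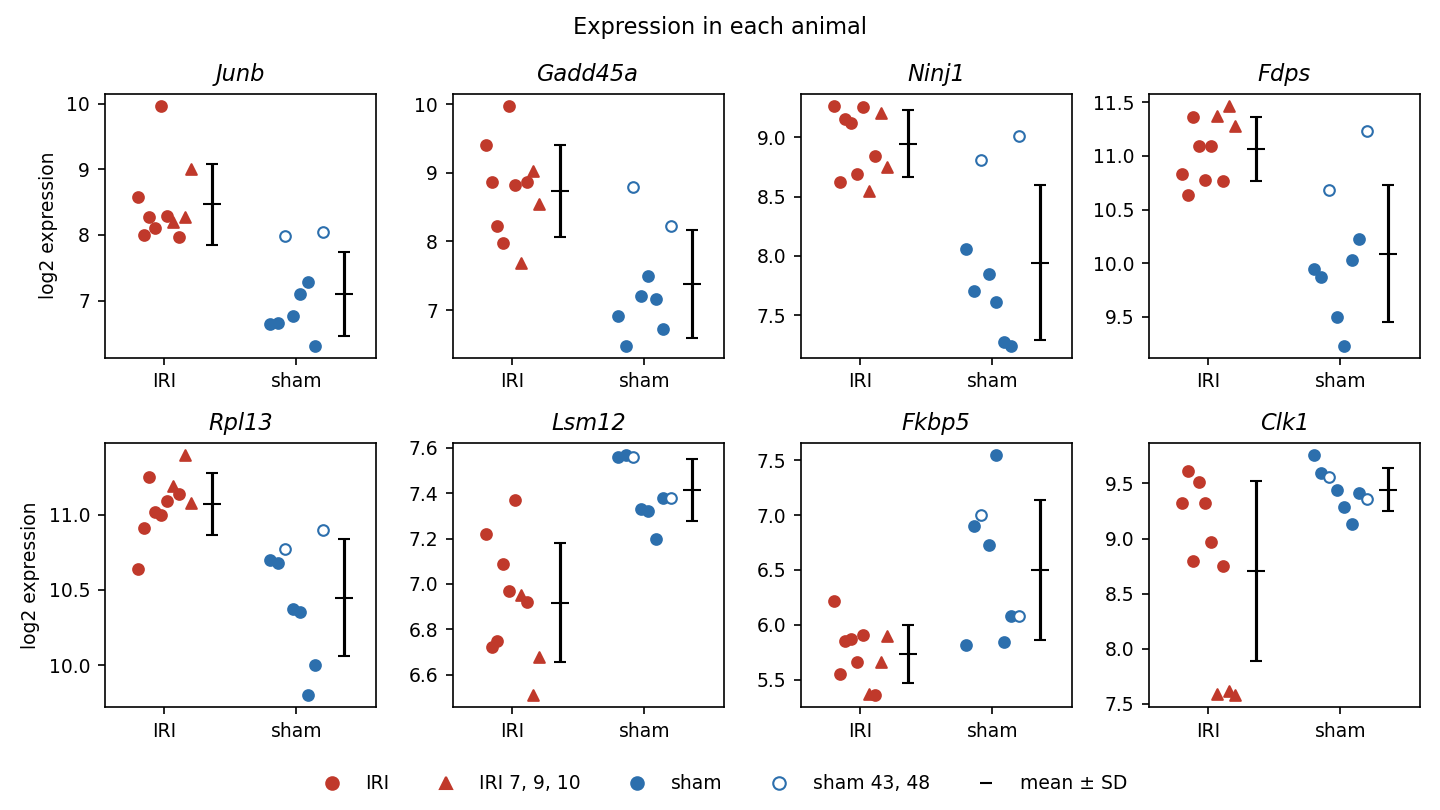
Log2 expression of 8 genes in each animal, IRI at the left and sham at the right of each panel, with the mean ± SD as bars. Open circles are sham animals 43 and 48 and triangles IRI animals 7, 9 and 10. For Junb, Ninj1 and Fdps the open circles reach the IRI values, and for Clk1 the triangles stand apart from the other IRI livers.

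All 20 cholesterol synthesis genes measured had a difference above 0 without the covariate, against 58.4% of all genes, with a median of 0.40. With spread 19 of 20 were above 0, against 59.6% of all genes, with a median of 0.30. The pathway builds sterols from acetyl units, and SREBP transcription factors drive its genes when sterols in the endoplasmic reticulum run low. Without the covariate 2 of 20 members rose (10%, against 0.172% of all genes). With it 0 fell and 5 rose (25%, against 2.96%), namely Pmvk, Fdps, Cyp51, Tm7sf2 and Insig1.

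Fdps, farnesyl diphosphate synthase, had values of 10.65, 11.09 and 11.47 in IRI livers and 9.23, 9.99 and 11.23 in sham livers, 1.97-fold apart (0.98 ± 0.19 log2, adjusted p = 0.0192). The highest sham value was that of animal 48, and the other 7 sham livers reached 10.68, into the low end of the IRI range. Tm7sf2, a sterol reductase, had values of 9.23, 9.80 and 10.50 in IRI livers and 7.96, 8.42 and 9.92 in sham livers (1.13 ± 0.27 log2, adjusted p = 0.0462). Sham animals 43 and 48 lay at 9.82 and 9.92, inside the IRI range, and the other 6 sham livers reached 8.53, below every IRI liver.

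Pmvk, phosphomevalonate kinase, differed by 0.74 ± 0.18 with spread (adjusted p = 0.0126), and kept that call whichever array was left out. Cyp51, the lanosterol demethylase, differed by 0.52 ± 0.15 (adjusted p = 0.0260), and Insig1, which holds SREBP in the endoplasmic reticulum, by 0.69 ± 0.22 (adjusted p = 0.0498). The list median was near 0 among arrays of high spread. In the 7 IRI and 2 sham arrays above the median spread, the list median was -0.03 with 9 of 20 members above 0, against 0.40 with 17 of 20 in the 3 IRI and 6 sham arrays at or below it. Without IRI animals 7, 9 and 10 the list median was 0.40, with 20 of 20 members above 0.

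Promoter sequences (RefSeq, GRCr8, 250 bases before to 50 after the gene start, written in the direction of transcription) are shown for Fdps and Tm7sf2, the sterol genes called without the covariate, and for Insig1, the SREBP regulator called with it. Capitals mark CCAAT, bound by NF-Y, and CACNCCAC, a core of the sterol regulatory element, on either strand. The promoter of Fdps lies at chr2:176804767-176805066 on the minus strand, that of Tm7sf2 at chr1:212789492-212789791 on the minus strand and that of Insig1 at chr4:8057720-8058019 on the minus strand.
Fdps: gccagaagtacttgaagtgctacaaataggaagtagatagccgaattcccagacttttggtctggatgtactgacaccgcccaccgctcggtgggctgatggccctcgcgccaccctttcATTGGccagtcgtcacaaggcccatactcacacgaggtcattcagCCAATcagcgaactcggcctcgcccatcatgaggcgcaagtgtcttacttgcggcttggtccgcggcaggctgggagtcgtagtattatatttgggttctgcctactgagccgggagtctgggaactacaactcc
Tm7sf2: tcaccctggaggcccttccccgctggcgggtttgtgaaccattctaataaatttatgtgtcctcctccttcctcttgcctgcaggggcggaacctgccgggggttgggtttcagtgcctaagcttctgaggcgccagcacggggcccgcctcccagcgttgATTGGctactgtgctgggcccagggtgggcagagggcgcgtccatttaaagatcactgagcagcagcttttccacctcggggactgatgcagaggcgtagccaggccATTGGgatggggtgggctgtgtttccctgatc
Insig1: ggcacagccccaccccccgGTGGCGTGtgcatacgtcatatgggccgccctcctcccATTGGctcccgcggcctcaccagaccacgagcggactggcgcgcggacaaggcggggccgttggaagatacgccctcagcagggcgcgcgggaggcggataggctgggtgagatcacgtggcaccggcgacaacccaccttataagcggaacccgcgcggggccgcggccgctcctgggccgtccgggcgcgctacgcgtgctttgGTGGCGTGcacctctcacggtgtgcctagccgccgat

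Of the 20 sterol genes measured, 16 had a promoter in the table, and 13 of these held CCAAT, which 37.5% of all 33469 promoters held. CACNCCAC was found in 3 of the 16, including Insig1, and in 5.8% of all promoters. Fdps and Tm7sf2 held 2 CCAAT matches each and 0 CACNCCAC matches, and Insig1 held 1 CCAAT and 2 CACNCCAC matches. A match describes these letters in this window and is not evidence of binding. Other forms of the sterol regulatory element were not searched for, so a promoter without CACNCCAC may still hold one.

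Antioxidant and metal-handling lists held called risers and no called fallers. Gpx1, the cytosolic glutathione peroxidase, had values of 11.54, 12.08 and 12.24 in IRI livers and 10.41, 11.34 and 12.04 in sham livers (0.77 ± 0.16 log2, adjusted p = 0.0266). Of the sham livers only animal 48, at 12.04, reached beyond 11.67, and every IRI liver but animal 1 exceeded the other 7 sham livers. Of 26 antioxidant and glutathione genes, 1 rose without the covariate (3.85%, against 0.172% of all genes). With it 0 fell and 3 rose (11.5%, against 2.96%), the others being Prdx5 (0.49 ± 0.12) and Sod1 (0.23 ± 0.07). Among arrays above the median spread the list median was -0.07, against 0.30 over all arrays.

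Ftl1, the ferritin light chain that stores iron, rose by 0.65 ± 0.15 (adjusted p = 0.0462), averaging 12.17 ± 0.27 in IRI livers and 11.52 ± 0.57 in sham livers. Its sign reversed among the arrays of high spread, to -0.13. Hamp, the iron hormone hepcidin, had values of 10.99, 11.60 and 11.99 in IRI livers and 9.17, 10.74 and 11.62 in sham livers (0.86 ± 0.21 with spread, adjusted p = 0.0136). Sham animals 45, 46 and 47, not 43 and 48, gave its overlap, and the call with spread held whichever array was left out. Mt1, a metal-binding metallothionein, differed by 0.85 ± 0.25 with spread (adjusted p = 0.0359), and its relative Mt2A by 0.89 ± 0.32 (adjusted p = 0.0821). In all, 3 of 20 genes of metal and heme handling rose with spread (15%, against 2.96% of all genes).

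Cytosolic ribosomal proteins formed the largest of the pathway lists. Of 69 cytosolic ribosomal proteins, 4 rose without the covariate (Rpl13, Rpl23, Rplp0 and Rpsa) and 17 with it, with 0 lower. In all, 61 of 69 differences were above 0 (88.4%, against 58.4% of all genes), with a median of 0.25, or 0.23 with spread. By share with spread, 24.6% of this list rose, against 26.1% of respiratory complexes II to V, 25% of cholesterol synthesis and 2.96% of all genes. Rpl13 had values of 10.64, 11.09 and 11.41 in IRI livers and 9.80, 10.53 and 10.90 in sham livers, 1.54-fold apart (0.63 ± 0.11 log2, adjusted p = 0.00925). Sham animals 46 and 47 stood lowest and animal 48 highest, while 9 of 10 IRI livers exceeded the 6 sham livers of low spread. Its other probe sets differed by 0.65 to 0.74.

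Rack1, a scaffold on the small ribosomal subunit that is on neither the ribosomal nor the translation factor list, rose by 0.91 ± 0.17 (1.89-fold, adjusted p = 0.0137), and the elongation factor subunit Eef1g rose by 0.55 ± 0.12. Eef1g was the 1 called without the covariate of 55 translation factors, of which 2 rose and 2 fell with it. The share called with it was 7.27%, against 5.89% of all genes. Rps13 and Rpl14, subunits with a call only with spread and chosen after their values were seen, differed by 0.62 ± 0.17 and 0.59 ± 0.15. Ribosomal protein probe sets can share sequence with processed pseudogenes, so single members are uncertain. Among the arrays above the median spread the ribosomal list had a median of -0.03, with 26 of 69 members above 0, against 0.45 with 64 of 69 among those at or below it. Without IRI animals 7, 9 and 10 the ribosomal median was 0.28, with 63 of 69 members above 0.

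Respiratory chain genes lay mostly above 0 without the covariate, 80.4% of complexes II to V and 87.5% of complex I, against 58.4% of all genes. With spread these shares were 69.6% and 78.1%, against 59.6% of all genes. Of 46 genes of complexes II to V, 1 rose without the covariate and 12 with it, with 0 lower and medians of 0.18 and 0.14. Atp5mc2, which encodes the rotor ring subunit of ATP synthase, had values of 9.83, 10.18 and 10.79 in IRI livers and 8.48, 9.29 and 10.29 in sham livers (0.92 ± 0.19 log2, adjusted p = 0.0212). Its overlap came from sham animals 43 and 48, at 10.23 and 10.29. Of 32 complex I genes 0 passed without the covariate, and with it the subunit Ndufs8 rose (0.51 ± 0.14) and the subunit Ndufs1 fell (-0.37 ± 0.09). That share of complex I, 6.25%, was near the 5.89% over all genes. Among arrays above the median spread the medians were -0.15 for complexes II to V and -0.22 for complex I. Of 37 proteasome subunits, 4 rose (10.8%, against 2.96% of all genes) and 1 fell (2.7%, against 2.92%) with spread, and 0 passed without it.

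Ninj1, whose protein ruptures the plasma membrane in lytic cell death, showed the smallest adjusted p among the risers with spread. It had values of 8.55, 8.98 and 9.27 in IRI livers and 7.24, 7.78 and 9.01 in sham livers (1.002 ± 0.19 log2, adjusted p = 0.0137, or 0.87 ± 0.13 and 6.86e-05 with spread). Sham animals 43 and 48, at 8.81 and 9.01, lay within the IRI range, and the other 6 reached 8.06, below every IRI liver. Ninj1 was the 1 riser of 15 lytic death genes. Acsl4, an acyl-CoA synthetase of ferroptosis, fell with spread (-0.54 ± 0.16, adjusted p = 0.0394). With spread 13.3% of the lytic death list was called, against 5.89% of all genes. Of 17 BCL2 family genes, Bnip3, a mitophagy receptor also induced by hypoxia, and Bmf, a pro-apoptotic BH3-only protein, rose with spread, by 0.60 ± 0.18 and 0.40 ± 0.11. They were 11.8% of that family, against the same 5.89%.

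The remaining risers among the 35 spanned several roles, with differences from 0.45 to 1.32. C9h2orf72, for which no role is given here, averaged 8.63 ± 0.56 in IRI livers and 7.31 ± 0.90 in sham livers. Membrane and trafficking genes were Marchf2 (a ubiquitin ligase), Saraf (a brake on store-operated calcium entry), Derl1 (endoplasmic reticulum degradation), Lamtor4 (lysosomal Ragulator), Tmem17, and the adhesion and chaperone proteins Nectin2 and Bsg. Metabolic members were Ak6 and Nme3, which are nucleotide kinases, Hao1, the peroxisomal glycolate oxidase, and Ghitm of the inner mitochondrial membrane. In the 7 IRI and 2 sham arrays above the median spread, 25 of the 35 kept their sign, all but Lsm12 and Zup1 at a smaller size, and the other 10 were Tm7sf2, Ftl1, Rplp0, Marchf2, Ak6, Hao1, Saraf, Ghitm, Bsg and Tmem17.

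Among the fallers, Lsm12, a Like-Sm protein linked to RNA handling, had values of 6.51, 6.94 and 7.37 in IRI livers and 7.20, 7.38 and 7.57 in sham livers. The difference was -0.50 ± 0.09 log2 (0.709-fold, adjusted p = 0.00925). Only IRI animals 1 and 6, at 7.22 and 7.37, reached the sham range, and sham animals 43 and 48 lay among the other sham livers. Nudt12, a nucleotide diphosphatase of peroxisomes, had values of 6.73, 7.02 and 7.29 in IRI livers and 7.26, 7.36 and 7.58 in sham livers (-0.38 ± 0.08, adjusted p = 0.0374). Only IRI animal 6 exceeded the lowest sham value.

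Fkbp5, a co-chaperone of the glucocorticoid receptor and itself a glucocorticoid target, had values of 5.36, 5.75 and 6.22 in IRI livers and 5.82, 6.40 and 7.55 in sham livers. This was a 0.588-fold level (-0.77 ± 0.18 log2, adjusted p = 0.0462), and it was the 1 called of 16 glucocorticoid-induced genes, whose median was 0.14. That share, 6.25% in both fits, stands against 0.241% of all genes without the covariate and 5.89% with it. Sham values of Fkbp5 were scattered, with animals 41, 46, 47 and 48 inside the IRI range. The other fallers without the covariate were Tia1, a stress granule protein (-0.35 ± 0.08), Zup1, a ubiquitin peptidase (-0.58 ± 0.14), Glg1, a Golgi glycoprotein (-0.65 ± 0.16), the kinase Stk38l, the histone gene H2bc18, Fam83b and Pdgfra.

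Clk1, Snrpd1 and Nxf1, which act in splicing and mRNA export, fell with spread, and each was lowest in IRI animals 7, 9 and 10. Clk1, the kinase that phosphorylates SR splicing factors, had values of 7.58, 8.88 and 9.61 in IRI livers and 9.13, 9.43 and 9.76 in sham livers (-0.86 ± 0.21 with spread, adjusted p = 0.0117). IRI animals 7, 9 and 10 lay at 7.59, 7.62 and 7.58, and the other 7 between 8.75 and 9.61. Without those 3 the difference was -0.44 with an adjusted p of 0.305.

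Snrpd1, a core Sm protein, stood at 6.37, 6.55 and 6.53 in IRI animals 7, 9 and 10, against 8.05 or more in every sham liver, and Nxf1, the mRNA export receptor, at 5.84, 6.82 and 6.74, against 8.14 or more. Hnrnph2 (-0.79 ± 0.16), Top1, the DNA topoisomerase (-0.77 ± 0.15), and the splicing factor subunit Sf3a3 (-0.49 ± 0.07, adjusted p = 6.86e-05, chosen after its values were seen) were lower with spread in a less uneven way. Without IRI animals 7, 9 and 10, Sf3a3 and Hnrnph2 kept an adjusted p of 0.00316 and 0.0478, and Top1 had 0.0551. A list of 97 splicing factors and kinases, drawn up after the values were seen, had 0 members called without the covariate. With spread 2 were higher (2.06%), 16 lower (16.5%) and 79 not called, against 2.96% higher and 2.92% lower over all genes. The list median was -0.19 with spread and 0.04 in the plain group means without those 3 IRI livers.

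Hepatocyte metabolic lists had 0 members called without the covariate. With spread in the fit, Fmo1, a flavin monooxygenase, differed by -0.93 ± 0.21 (adjusted p = 0.00697). Outside these lists, Pfkfb1, which sets fructose bisphosphate signalling in glycolysis, differed by -0.85 ± 0.21 with spread, and Aox1, an aldehyde oxidase, by -1.06 ± 0.30. Fmo1 had values of 7.58, 8.68 and 9.37 in IRI livers and 9.06, 9.36 and 10.12 in sham livers, and kept its call whichever array was left out. The low values of Aox1 were those of IRI animals 5 and 7, at 7.40 and 6.76, against 9.87 or more in sham livers. Nr1i3, the xenobiotic receptor CAR, fell by 0.68 ± 0.20 on the log2 scale and Cps1, the entry enzyme of the urea cycle, by 0.46 ± 0.15, whereas Gls2, the liver glutaminase, rose by 0.40 ± 0.12.

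Fmo1 was the 1 called with spread of 25 cytochrome P450 and conjugation genes (4%), Nr1i3 the 1 of 16 hepatocyte transcription factors (6.25%), and Cps1 and Gls2 the 2 of 9 urea cycle and ammonia genes (22.2%), against 5.89% of all genes. None of 14 fatty acid synthesis, 20 fatty acid oxidation, 16 gluconeogenesis or 12 pericentral genes passed in either fit. Cyp7a1, the rate-limiting enzyme of bile acid synthesis, averaged 8.23 ± 1.01 in IRI livers and 9.20 ± 0.71 in sham livers with an adjusted p of 0.281. Of the 33 pathway lists, 24 had no member called without the covariate and 8 had none with it.

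None of the inflammatory and vascular genes on the lists below passed without the covariate. Of 31 cytokines, chemokines and NF-kB regulators, 1 was called with it (3.23%, against 5.89% of all genes), Vcam1, an endothelial adhesion molecule, which fell by 0.43 ± 0.13. Cxcl1, a neutrophil chemokine, averaged 8.00 ± 1.15 in IRI livers and 6.72 ± 0.62 in sham livers (adjusted p = 0.340), and Ccl2, a monocyte chemokine, 6.51 ± 0.99 and 5.74 ± 0.50 (adjusted p = 0.382). Cxcl1 ran from 6.31 to 9.71 among IRI livers, and sham animal 48 stood at 8.08. Of 21 vasoactive and adenosine genes 4 were called with spread (19%), in both directions. Apln, the peptide apelin (0.24 ± 0.07), and Adora1, an adenosine receptor (0.38 ± 0.11), rose, and Plat, the tissue plasminogen activator (-0.41 ± 0.12), and Nt5e, which makes adenosine (-0.39 ± 0.12), fell.

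Hypoxia and chaperone lists likewise had 0 members called without the covariate, and with it shares of 8.33% of hypoxia-inducible genes, 10.5% of endoplasmic reticulum chaperones and 14.3% of heat shock chaperones, against 5.89% of all genes. Of 24 hypoxia-inducible genes, Bnip3 rose and P4ha2, a collagen prolyl hydroxylase, fell with spread (-0.31 ± 0.10). Of 19 endoplasmic reticulum chaperones, 0 rose and 2 fell with spread, Hsp90b1 (-0.43 ± 0.12) and Sel1l (-0.50 ± 0.14), and the list median was -0.22. Hspa13, a chaperone of the Hsp70 family bound to microsomes that is on neither chaperone list, fell by 0.80 ± 0.17 with spread. Of 21 heat shock chaperones, 1 rose and 2 fell with spread. Of 21 actin and SRF targets 1 was called with spread (4.76%), Actg1, cytoplasmic gamma-actin, which rose by 0.81 ± 0.24.

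**Figure D5:**
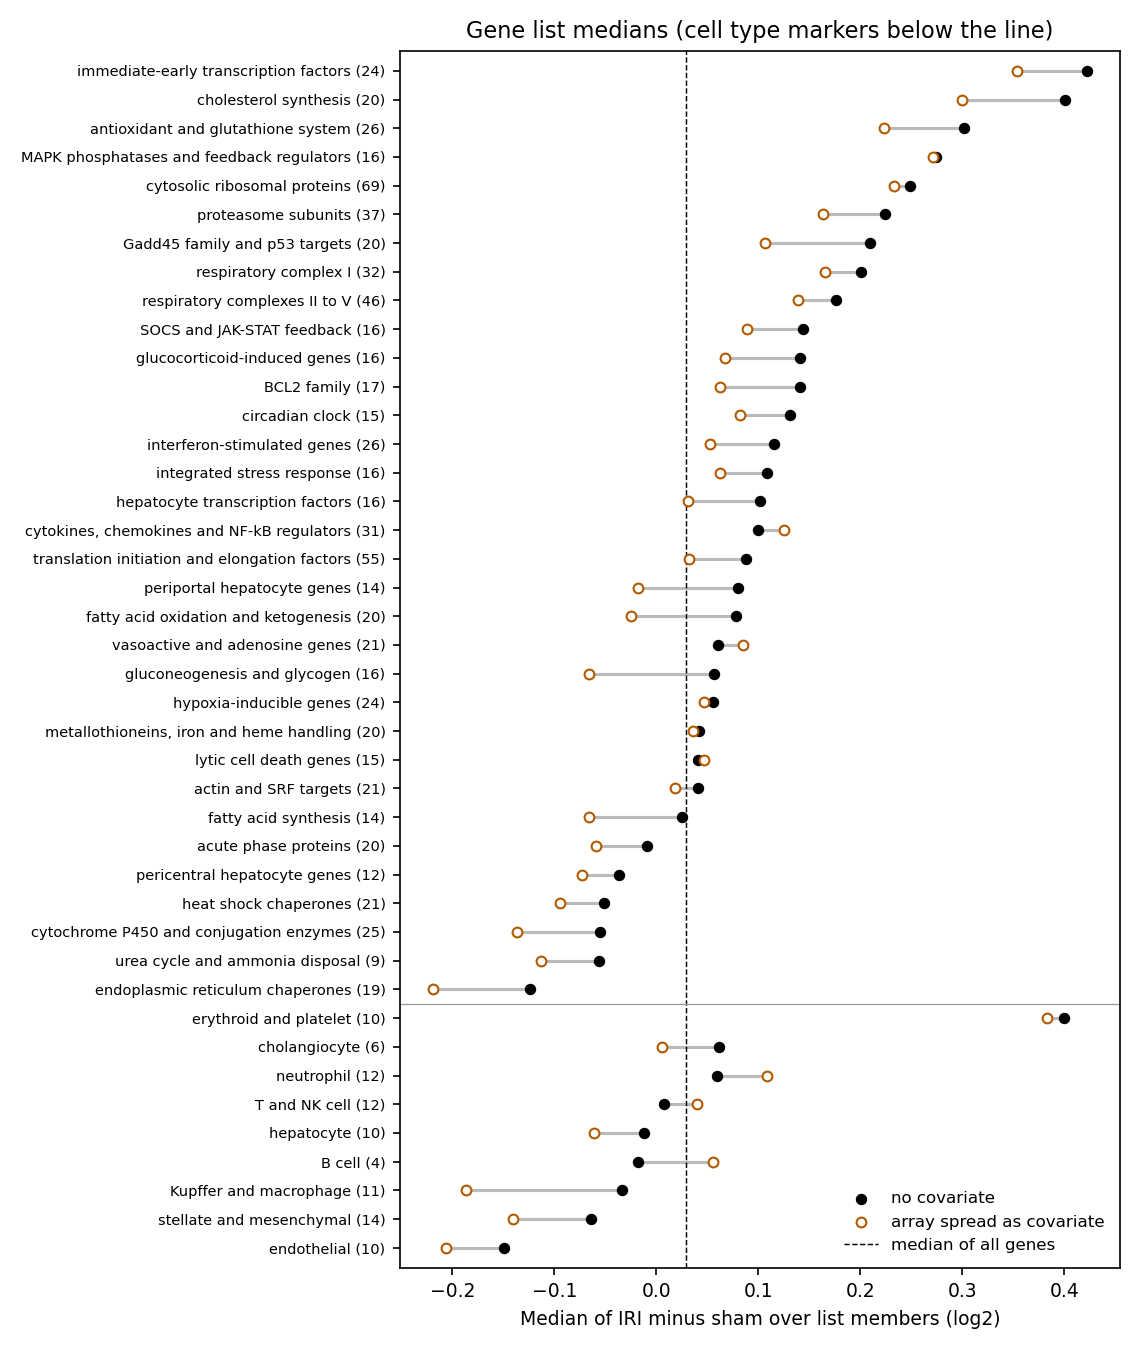
Median difference between IRI and sham livers (log2, x axis) over the measured members of each gene list (number in brackets), without a covariate (black) and with array spread as a covariate (open), with cell type markers below the grey line. Immediate-early factors (0.42) and cholesterol synthesis (0.40) have the highest medians among pathways, and the dashed line is the median over all genes (0.03).

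Markers of the cell types of the liver were read beside these results. In bulk tissue fewer cells of a type and less RNA per cell cannot be told apart. Of 10 hepatocyte markers 0 passed in either fit, and albumin (Alb) averaged 13.22 ± 0.17 in IRI livers and 13.26 ± 0.03 in sham livers. Its lowest values were 12.82 and 13.02 in IRI animals 10 and 9. Erythroid and platelet markers were the highest of the 9 marker lists, with all 10 above 0 (against 58.4% of all genes) and a median of 0.40. Hba-a3, a hemoglobin alpha gene, rose with spread (0.90 ± 0.27, adjusted p = 0.0416), the 1 called of the 10 (10%, against 5.89% of all genes). Hbb, hemoglobin beta, averaged 12.63 ± 0.48 in IRI livers and 11.89 ± 0.59 in sham livers (adjusted p = 0.191). The summed level of the 10 ran from 12.40 to 14.02 in IRI livers and from 12.00 to 13.57 in sham livers, none was at 0, and its part in the other results was not tested.

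Markers of non-parenchymal cells differed by list. The endothelial median was -0.15 with 2 of 10 above 0 and the stellate median -0.06 with 4 of 14, whereas the neutrophil median was 0.06 with 11 of 12 above 0 and the cholangiocyte median 0.06 with 4 of 6. Over all genes 58.4% were above 0. Without IRI animals 7, 9 and 10 the neutrophil median was -0.0021 with 6 of 12 above 0, and the endothelial median -0.05 with 4 of 10. The stellate and cholangiocyte medians in those arrays were -0.11 and 0.09. Pdgfra, the platelet-derived growth factor receptor of stellate cells, had values of 5.77, 6.11 and 6.30 in IRI livers and 6.10, 6.58 and 6.86 in sham livers (-0.46 ± 0.10, adjusted p = 0.0374), and sham animal 48 stood lowest in its group. Of 14 stellate and mesenchymal markers it was the 1 called without the covariate, joined with spread by Col1a2 (-0.42 ± 0.12). With spread, Cd163, a hemoglobin scavenger receptor of Kupffer cells (-0.63 ± 0.16), was the 1 called of 11 macrophage markers, and Rspo3, a Wnt enhancer of central vein endothelium (-0.40 ± 0.10), the 1 of 10 endothelial markers. Shares called with spread were thus 14.3% of stellate, 9.09% of macrophage and 10% of endothelial markers, against 5.89% of all genes. The Kupffer list median was -0.03 over all arrays and 0.19 without IRI animals 7, 9 and 10. Of 12 neutrophil, 12 T and NK cell, 4 B cell and 6 cholangiocyte markers 0 passed in either fit.

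With the slope on spread removed, 4 genes had every IRI value above every sham value (0.0276% of genes) and 6 had every IRI value below (0.0414%), and apart from Junb and Nudt12 they were chosen after their values were seen. The 4 were Junb, Lypla1, an acyl-protein thioesterase, the olfactory receptor gene Or10p1 and Teddm1a. The 6 were Nudt12, Sf3a3, Ccdc59, Cfap36, Gfm1, a mitochondrial elongation factor, and Kpna2, a nuclear importin. Gfm1 reached 8.29 in IRI livers and no less than 8.31 in sham livers, and Sf3a3 7.15 and 7.23. The gaps were thus small for most, and they rest on a slope estimated from the same arrays.

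Called genes differed in gene length, which the fit did not use, and in slope on spread, which it did. With spread in the fit, the median genomic length in GRCr8 was 7.06 kb for the 430 risers and 34.9 kb for the 424 fallers, against 18.02 kb over 14493 genes with a length. With the genes split by length into 4 bins, 202 rose and 22 fell in the shortest, 118 and 72 in the next, 69 and 170 in the one after it, and 41 and 159 in the longest. Over all genes the median difference with spread ran from 0.095 in the shortest bin to -0.014 in the longest. Median log2 levels of risers and fallers were 7.03 each, above the 5.87 of all genes. Quartiles of level were 4.75 and 9.13 for risers and 6.26 and 7.82 for fallers. The median slope on spread was 0.62 in risers and 2.26 in fallers, against 0.026 over all genes. What links length to these calls was not tested.

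The conditioned livers share the sham group with this comparison, so their means stand here only beside it. Junb averaged 8.46 in IRI livers and 9.01 after IPC, 8.64 after IPO and 8.93 after both, against 7.10 in sham livers. Lsm12 averaged 6.92 in IRI livers and 7.37 after IPC, 7.35 after IPO and 7.28 after both, against 7.41 in sham livers. For Fdps these means were 11.07, 10.99, 10.86 and 10.69, against 10.09 in sham livers. For Ninj1 they were 8.95, 9.05, 8.98 and 8.86, against 7.94 in sham livers. Of these 4 genes, Lsm12 thus had conditioned means near the sham mean, and the other 3 had conditioned means nearer to the IRI mean.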

How the data were processed

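RNA from 48 rat liver biopsies, 1 array per animal, was hybridized to Affymetrix whole-transcript arrays. The deposited values are log2 expression per probe set, which the authors obtained with RMA in Affymetrix Expression Console, per the submitters' processing notes. The spread over genes still differed between arrays in the deposited values. Array data give no read depth, and the number of arrays limits precision. Of 29215 probe sets 15310 had 1 gene symbol, 323 several and 13582 none. Each of 14506 genes was represented by its probe set of highest mean.

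All 5 groups were fitted together with limma 3.58.1 in R 4.3.3 (lmFit, eBayes), without and with array spread as a covariate, and IRI minus sham was tested two-sided with Benjamini-Hochberg adjustment over all 14506 genes at 0.05. Each array is a separate rat. Scripts were tested on simulated data. Tables and figures used Python 3.11.15, pandas 2.3.3, numpy 2.4.6 and matplotlib 3.10.9. Members and gene lists were chosen with earlier results of these data known. Genes named are the 15 largest called rises and falls of each fit and, of each list, up to 5 and 3 members of smallest p with and without spread, plus the 3 brightest markers per cell type. Exceptions are stated. Alternatives covered array weights, scaling, filters, thresholds, probe set choice, the arrays fitted and each array left out.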

Additional observations from a re-analysis of the deposited data

Results flagged for a closer look

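Of 194 groups of values examined, 12 held a sample far from the others by Dixon's criterion, and chance alone flags about 1 in 20 groups. IRI animal 5 stood highest for Junb at 9.97 and for Atf3 at 10.96, with the next at 8.47. IRI animal 1 stood lowest for Gpx1 at 11.54, for the ribosomal protein gene Rps13 at 10.13 and for Hbb at 11.36, where the next IRI liver lay at 12.53. IRI animal 7 stood highest for Ak6 at 8.99 and for Or10p1 at 5.84, and its mean correlation with the other arrays, 0.888, was far below the next lowest IRI value of 0.955.

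Among sham livers, animal 48 stood apart for 3 genes. It was lowest for the histone gene H2bc18 at 5.29, and highest for the chemokines Cxcl1 at 8.08 and Ccl2 at 6.85, where the next sham livers lay at 7.07 and 6.03. Sham animal 47 was lowest for Bnip3 at 7.82.

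Probe sets without a single gene symbol, which enter no comparison above, also differed. Of 13905 such probe sets 35 were called, 26 higher and 9 lower in IRI livers, and 451 were called with array spread as a covariate, 264 higher and 187 lower. These shares of 0.252% and 3.24% stand against 0.241% and 5.89% of the genes tested above.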

How the results depend on the processing

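No paired analysis was possible because each rat has its own number. The 35 genes called without a covariate numbered 0 with only the IRI and sham arrays (1122 at an unadjusted p under 0.05), 0 among the arrays of spread above the median (1157), 0 without IRI 7, 9 and 10 (1772), 2 with median centring over all probe sets, 2 at an adjusted p under 0.01, 3 without the 14 arrays of lowest spread in the series and 20 at 1.5-fold or more. They numbered 57 without the dimmest 1 in 3 genes, 92 over all probe sets, 259 and 382 with quantile normalization over probe sets and genes, 1038 among the arrays of spread at or below the median, 1062 without sham 43 and 48, 1879 without these and IRI 7, and 1894 with array weights. Leaving out single arrays gave 1 to 324. The split was 25 higher and 10 lower as deposited, but 162 and 220 with quantile normalization over genes and 138 and 121 over probe sets.

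The 854 genes called with array spread numbered 0 without the 14 arrays of lowest spread, 0 above the median spread, 1 with a slope within each group, 48 without IRI 7, 9 and 10, 49 with only the IRI and sham arrays, 103 at 1.5-fold or more, 151 at an adjusted p under 0.01, 212 with array weights and 220 with spread taken over probe sets without a single symbol. They numbered 1848 without sham 43 and 48 and 2960 at or below the median spread. Leaving out single arrays gave 297 to 1459. Of the genes named for a call with spread only, Ccdc59, Cfap36, Clk1, Fmo1, Gadd45g, Gfm1, Hamp, Hnrnph2, Hspa13, Kpna2, Lypla1, Ndufs1, Pfkfb1, Pmvk, Rspo3, Sf3a3, Teddm1a and Top1 kept it with any single array left out, and the others lost it at least once. The split of 430 higher and 424 lower became 276 and 520 with median centring over all probe sets, 371 and 595 with quantile normalization over genes and 347 and 550 over probe sets. Settings that leave out or split arrays were partly chosen after the data were seen. The spread difference was 0.029 to 0.079 with single arrays left out, and all 35 called genes kept their direction there. Gene lists with a median above 0 numbered 31 of 42, 28 to 34 with single arrays left out, 14 without the 14 arrays of lowest spread and 14 above the median spread.

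The 85 called genes named were run under these settings, and their reversals occurred under 2 of them, which keep 2 sham arrays each. Without the 14 arrays of lowest spread the differences were -0.18 for Tm7sf2, -0.13 for Ftl1, -0.0816 for Atp5mc2, -0.14 for Marchf2, -0.13 for Ak6, -0.0345 for Hao1, -0.0663 for Saraf, -0.22 for Ghitm, -0.056 for Bsg and -0.0842 for Tmem17. With the covariate they were -0.21 for Prdx5, -0.21 for Ndufs8, 0.0282 for Clk1, 0.13 for Snrpd1, 0.19 for Nxf1, 0.0406 for Col1a2, 0.18 for Cps1, -0.13 for Rps13, -0.19 for Rpl14, 0.21 for Acsl4, 0.19 for Sel1l, 0.12 for Nt5e and -0.0786 for Gls2. Above the median spread they were -0.0691 for Tm7sf2, -0.13 for Ftl1, -0.0015 for Rplp0, -0.14 for Marchf2, -0.12 for Ak6, -0.0313 for Hao1, -0.019 for Saraf, -0.22 for Ghitm, -0.0099 for Bsg and -0.0583 for Tmem17, and with the covariate 0.19 for Snrpd1, 0.0054 for Nxf1, 0.0326 for Cps1, -0.0048 for Rps13 and 0.21 for Nt5e. The cause of these changes was not tested.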
